A study of Mus musculus with 5 samples.

Results

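Lysophosphatidic acid (LPA) and sphingosine 1-phosphate (S1P) are small signalling lipids that act from outside the cell on G protein-coupled receptors. The 10 genes described here encode 5 LPA receptors (Lpar1, Lpar2, Lpar4, Lpar5 and Lpar6), 3 S1P receptors (S1pr1, S1pr2 and S1pr4) and the 2 sphingosine kinases that make S1P (Sphk1 and Sphk2). They were chosen by symbol out of the 25549 gene models of the authors' deposited table, each symbol matching 1 row. The set was proposed with the fold changes and p-values of the same table in view, so these values describe the members and support nothing about them. The remaining receptors of both families in that table, Lpar3, S1pr3 and S1pr5, were not part of the set and are given beside it.

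The cells were mast cells grown from C57BL/6 bone marrow, kept for 6 to 8 weeks with recombinant mouse interleukin-3, the cytokine that favours outgrowth of mast cells from marrow. One genotype was Cpa3-Cre;miR-9∆fl/∆fl (n = 3 samples), called the miR-9 line here, and its control was Cpa3-Cre (n = 2 samples). Both carry Cpa3-Cre, a Cre recombinase driven by the promoter of Cpa3, the mast cell carboxypeptidase gene, so neither group is free of Cre. All 5 samples were recorded with interleukin-3 at 50 ng/mL, 10 percent serum and 40 units of heparinase I for 2 hours. The labels state that mice were matched for age and sex and received no treatment. They do not say what recombination of the allele does to miR-9, nor whether each sample had its own mouse or culture, so any p-value measures only how these samples spread, possibly for technical reasons. Positive log2 fold changes mean a higher level in the miR-9 line. In bulk RNA, fewer cells of a type and less RNA per cell cannot be told apart.

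LPA is made mainly outside cells by the secreted enzyme autotaxin, and S1P is made inside cells by phosphorylation of sphingosine and is then exported. Lpar1, Lpar2 and Lpar3 and the 5 S1P receptors belong to the EDG family, and Lpar4, Lpar5 and Lpar6 to a separate family related to the purinergic P2Y receptors. In mouse mast cells, activation through the IgE receptor stimulates sphingosine kinases. The S1P that is released acts back on S1pr1, known for chemotaxis, and S1pr2, known for supporting degranulation. LPA also acts on mast cells, and in human mast cells the receptor encoded by LPAR5 is known for chemokine release.

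Across the 10 members, 1 fell and none rose at a Benjamini-Hochberg adjusted p under 0.05, out of 9 with a p-value. Over all 24071 genes with a p-value, 0.411 percent were called, 0.166 percent lower and 0.245 percent higher in the miR-9 line. Unadjusted p-values under 0.05 were found for 2 members, against 7.92 percent of all genes. The median log2 fold change of the 9 members was -0.09, and that of all genes in the authors' deposited table was also -0.09. The member that fell was Lpar4, and the members otherwise lay between -0.76 and 0.85 in the authors' deposited table.

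The members lie on 10 different chromosomes, so none neighbours another. In GRCm38 coordinates of the deposited gene models, the LPA receptor genes besides Lpar4 and Lpar6 are Lpar1 (chr4:58435255-58553898, minus strand), Lpar2 (chr8:69822429-69831102, plus strand) and Lpar5 (chr6:125067920-125082472, plus strand). The S1P receptor genes are S1pr1 (chr3:115710433-115715055), S1pr2 (chr9:20965952-20976793) and S1pr4 (chr10:81497745-81500132), all on the minus strand. The kinase genes are Sphk1 (chr11:116530925-116536674, plus strand) and Sphk2 (chr7:45709467-45718002, minus strand).

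**Figure D1:**
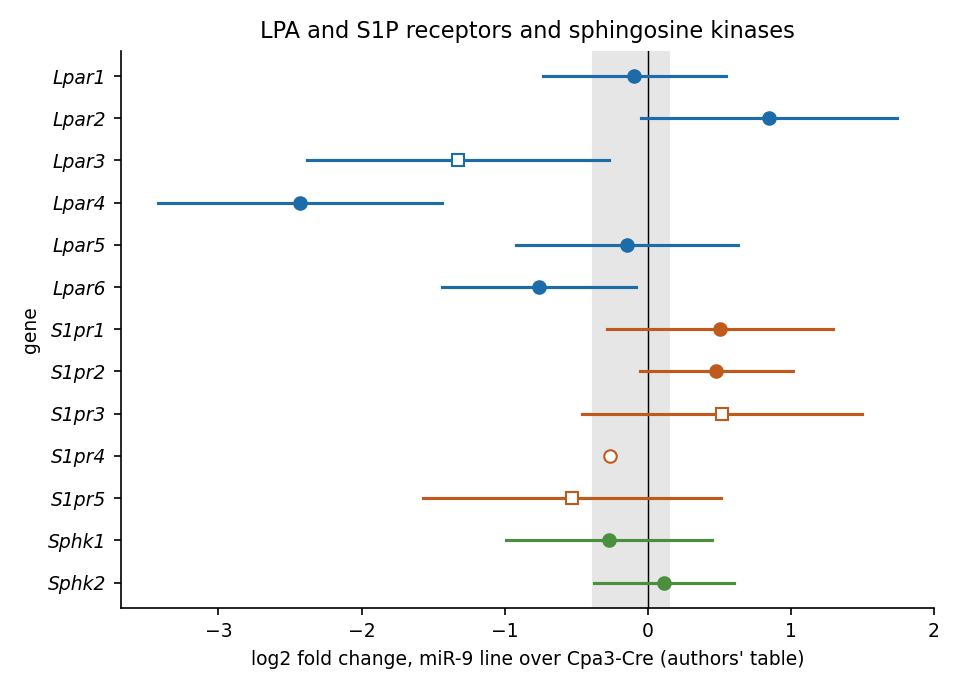
Log2 fold change (the miR-9 line relative to Cpa3-Cre) from the authors' deposited table for each receptor and kinase gene. Filled circles are members with a p-value, the open circle is S1pr4, which has none, open squares are receptors outside the set, bars are 95 percent intervals implied by the fold and p-value, and the grey band spans the middle 50 percent of all genes (-0.38 to 0.15); Lpar4 stands lowest, at -2.43.

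Lpar4 encodes a P2Y-type LPA receptor that is known in mice for the formation of blood and lymph vessels. In the authors' deposited table its log2 fold change was -2.43, or 5.39-fold lower in the miR-9 line, with p = 1.59e-06. Adjusted by Benjamini-Hochberg over all genes of the authors' deposited table, its p was 0.00213. Only 4 genes with a p-value had a lower log2 fold change in that table, and Lpar4 was 18th of all genes by p-value. The gene lies on chromosome X from 106920625 to 106933900 (GRCm38, plus strand), with 3 exons of which 1 is coding. Some markers of stromal, endothelial, macrophage and T cells had negative values in the authors' deposited table. Those with an unadjusted p under 0.05 ran from -1.03 for Cd3d to -1.47 for Pdgfra. Among markers with a p-value, 1 of 3 for monocytes and macrophages (Cx3cr1, 0.77) was positive in that table. So were 2 of 9 stromal and endothelial markers, among them Pecam1 at 0.05. The part of these cell types in the value of Lpar4 was not tested. The values per library were not used, so how the 3 and 2 samples spread around this difference is not given here.

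An error for each fold was taken from the fold and p-value of the authors' deposited table, on the assumption that the p-value came from a two-sided Wald test, the default of DESeq2. This implied standard error was 0.51 for Lpar4, which gives a 95 percent interval from -3.42 to -1.44 on the log2 scale. Of all genes, 77.9 percent had a smaller implied standard error, so the fold of Lpar4 is among the less precisely measured. The implied standard error over all genes had a median of 0.40 and never exceeded 0.540. The sources used here do not say whether folds were drawn towards 0, as DESeq2 can do, which would make folds of scarce genes in the authors' deposited table too small.

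**Figure D2:**
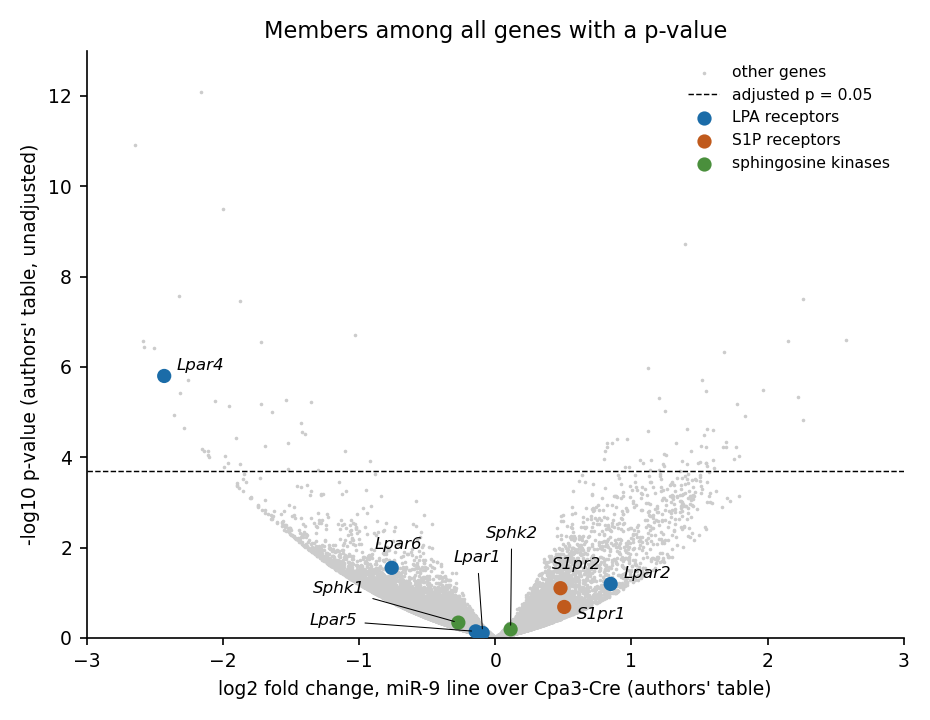
Log2 fold change (x axis) against the -log10 of the unadjusted p-value (y axis), both from the authors' deposited table, for all genes with a p-value; the dashed line marks the largest p-value called, 0.000205. Lpar4 is the member above the line and the other 8 with a p-value lie below it, while 1 gene lies outside the plotted range.

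Lpar6 had the next lowest value. This P2Y-type receptor, known in humans for hair growth, had a log2 fold change of -0.76 (1.69-fold lower) with p = 0.0282 in the authors' deposited table. It did not pass over all genes (adjusted p = 0.521), and its implied 95 percent interval ran from -1.44 to -0.08. Of all genes, 7.59 percent had a lower log2 fold change. Lpar6 lies inside the retinoblastoma gene Rb1 on chromosome 14, from 73237891 to 73240358 on the plus strand, and Rb1 runs on the minus strand. Their exons in the authors' deposited table share 408 bases, where reads can be told apart only by strand. The sources used here do not say if strand was used in counting. Rb1 stood at 0.21 (p = 0.324) in the authors' deposited table.

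Lpar2 stood highest among the members. It encodes an EDG-type LPA receptor, and its log2 fold change was 0.85 (p = 0.0640) in the authors' deposited table. The adjusted p was 0.674 and the implied interval ran from -0.05 to 1.75. Of all genes, 97.9 percent had a lower log2 fold change than Lpar2. Its neighbour Pbx4, 1521 bases further on the same strand, stood at 0.66 (p = 0.142) in the authors' deposited table.

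Lpar1 and Lpar5 lay near 0. Lpar1, an EDG-type receptor known in mice for brain development and lung fibrosis, stood at -0.09 (p = 0.778) in the authors' deposited table, with an implied interval from -0.73 to 0.55. Lpar5, a P2Y-type receptor, stood at -0.14 (p = 0.718) in the authors' deposited table, with an implied interval from -0.92 to 0.63. These intervals reach well to both sides of 0, so the values do not show that the genes were equal in both genotypes.

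Among the S1P receptors none passed. S1pr1, the Gi-coupled receptor known for lymphocyte exit from lymphoid tissue, stood at 0.51 (p = 0.207, adjusted p = 0.828) in the authors' deposited table, with an implied interval from -0.28 to 1.29. S1pr2 stood at 0.48 (p = 0.0796, adjusted p = 0.707) in the authors' deposited table, and its implied interval ran from -0.06 to 1.02. S1pr1 and S1pr2 were higher than 94.1 and 93.5 percent of all genes by log2 fold change. S1pr4, a receptor found mainly in blood cells, stood at -0.26 in the authors' deposited table, without a p-value. The table has no p-value for 1478 of its 25549 rows.

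Neither sphingosine kinase passed. Sphk1, the mainly cytoplasmic enzyme, stood at -0.27 (p = 0.460, adjusted p = 0.916) in the authors' deposited table, with an implied interval from -0.99 to 0.45. Sphk2, found in nucleus and mitochondria and known in mouse mast cells as the main source of S1P after IgE receptor activation, stood at 0.11 (p = 0.649, adjusted p = 0.954) in the authors' deposited table. Its interval, from -0.37 to 0.60, was the narrowest of the members. Sphk2 overlaps 2 genes on the opposite strand of chromosome 7. It shares 373 exon bases with Rpl18, a ribosomal protein gene (log2 fold change 0.37, p = 0.303 in the authors' deposited table). It shares 491 with Dbp, a clock-controlled transcription factor gene (0.21, p = 0.464 in the authors' deposited table).

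The receptors outside the set did not pass either. Lpar3, the remaining EDG-type LPA receptor, stood at -1.33 (2.51-fold lower, p = 0.0138, adjusted p = 0.400) in the authors' deposited table. Its implied interval, from -2.38 to -0.27, was wide, and 96.4 percent of genes had a smaller implied standard error. S1pr3 stood at 0.52 (p = 0.300) and S1pr5, known for natural killer cell traffic, at -0.53 (p = 0.321) in the authors' deposited table. Counting all 6 LPA receptors, 5 had negative values and 1 (Lpar2) a positive one, with a median of -0.45. Of the 4 S1P receptors with a p-value, 3 had positive values, with a median of 0.49, and 40.2 percent of all genes in the authors' deposited table were positive. The difference between the receptor families was not tested.

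The miR-9 hairpins give mature strands from both arms, and a target is recognised mainly through the seed, bases 2 to 8 of the mature strand. They are shown because their seed matches were looked for in the members. The sequences are those of RefSeq (GRCm38.p6), with the seed in capitals:

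mmu-miR-9-5p: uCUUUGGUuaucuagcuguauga

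mmu-miR-9-3p: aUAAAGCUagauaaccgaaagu

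For miR-9-5p, no member had a 7-base seed match (ACCAAAG in the transcript) in its longest 3' UTR of GENCODE M21. Such a match was found in 13.2 percent of 15442 protein-coding genes with a p-value and an annotated 3' UTR. For miR-9-3p (AGCTTTA), 2 of the 9 members with an annotated 3' UTR held one, S1pr1 and Lpar6, against 11.9 percent of the same genes. The Lpar4 3' UTR of 2576 bases held no 7-base or 6-base match to either strand, so these letters are not in the annotated 3' UTR of the 1 member that fell. Lpar5 has no annotated 3' UTR and could not hold a match. Outside the set, Lpar3 and S1pr5 had a miR-9-5p match and S1pr3 a miR-9-3p match. The 5 matches are printed 5′ to 3′ on the transcript strand with the 7 matching bases in capitals, from the GENCODE M21 transcripts (GRCm38).

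S1pr1, miR-9-3p match at chr3:115710461-115710489, minus strand: attttgcacatAGCTTTAtcaacttttaa

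Lpar6, miR-9-3p match at chr14:73242276-73242304, plus strand: tcatggaagacAGCTTTAtggcaccctaa

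S1pr3, miR-9-3p match at chr13:51422304-51422332, plus strand: tgttagattgaAGCTTTAgcgtactggat

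Lpar3, miR-9-5p match at chr3:146285615-146285643, plus strand: cgagtattttaACCAAAGctgccagcgta

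S1pr5, miR-9-5p match at chr9:21243495-21243523, minus strand: accctgtgactACCAAAGttcaaggggaa

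The 2 genes with a miR-9-5p match had negative log2 fold changes in the authors' deposited table (-1.33 for Lpar3 and -0.53 for S1pr5) without passing. Over the 15442 genes the median was -0.107 with a miR-9-5p match and -0.085 without. For miR-9-3p these medians were -0.089 and -0.088. Of all genes with a p-value, 40.2 percent had positive values. A link between matches and fold was not tested. The genes with a miR-9-3p match had both signs, at 0.51 for S1pr1, 0.52 for S1pr3 and -0.76 for Lpar6 in the authors' deposited table. The S1pr1 match begins at base 1317 of a 3' UTR of 1362 bases. The Lpar6 match lies outside the exons counted in the deposited table, whose Lpar6 model holds 45.6 percent of the M21 exon bases. For S1pr2 the deposited model holds 42.6 percent of the M21 exon bases, so reads in the rest of these 3' UTRs were not part of the values.

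The members' proteins fall into the families named above. Proteins translated from the GENCODE M21 coding sequences were between 344 and 386 residues long for the 8 member receptors. Lpar4 and Lpar6, the members with the lowest log2 fold changes, were also the most alike of all receptor pairs, with 53.5 percent identical residues. Lpar5 was 35.9 percent identical to Lpar4 and 36.0 percent to Lpar6. Lpar1 and Lpar2, which stood at -0.09 and 0.85 in the authors' deposited table, were 52.3 percent identical. S1pr1 and S1pr2 were 48.9 percent identical and stood at 0.51 and 0.48. Outside the set, S1pr1 was 51.6 percent identical to S1pr3 (0.52) and 46.1 percent to S1pr5 (-0.53). Whether identity goes with the log2 fold change was not tested. Between the P2Y-type and EDG-type receptors identity lay between 19.5 and 27.0 percent. The kinases Sphk1 and Sphk2 were 49.0 percent identical.

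**Figure D3:**
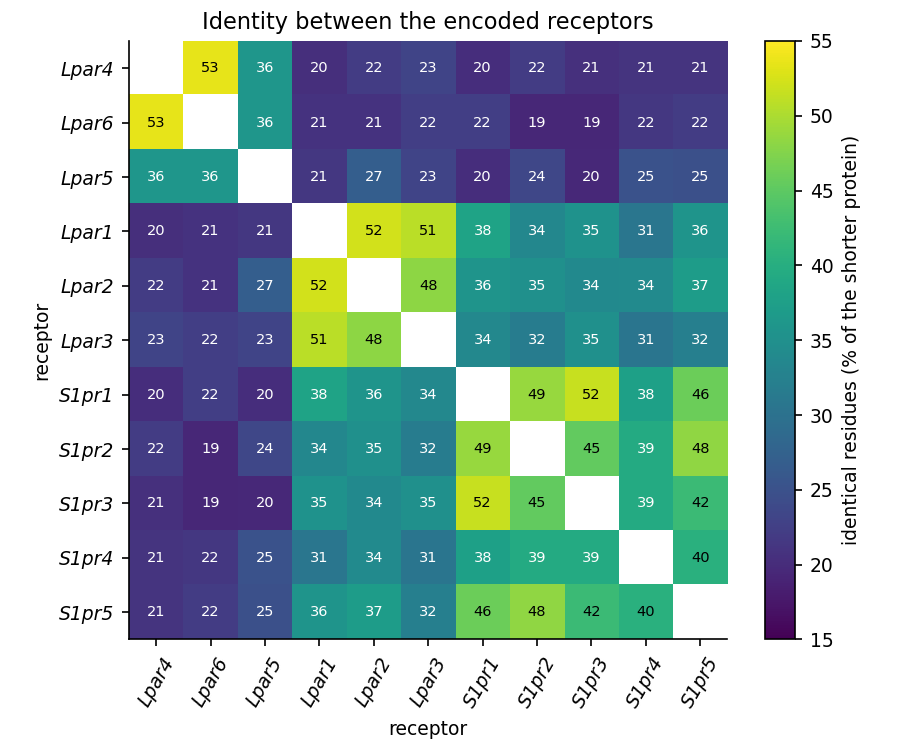
Percentage of identical residues (colour and number) between the proteins of the 11 LPA and S1P receptors, relative to the shorter protein. The P2Y-type receptors Lpar4, Lpar6 and Lpar5 form a block at the upper left, with Lpar4 and Lpar6 at 53.5 percent, apart from the EDG-type receptors.

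Words of 50 bases, the read length, were compared with the transcripts of all other genes, and those shared between members were not counted separately. None of the 4189 different 50-base words of the Lpar4 transcript occurred in a transcript of another gene on either strand, and the same held for Lpar1, Lpar5 and S1pr1. For Lpar2, Lpar6, S1pr2, S1pr4 and Sphk1, between 0.0862 and 1.26 percent of words occurred on the same strand of another gene's transcripts. On the opposite strand the share reached 18.3 percent for Sphk2, all in Rpl18 and Dbp, and 5.89 percent for Lpar6.

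Around Lpar4 lies a cluster of receptor genes of the same type. P2ry10, whose protein binds lysophosphatidylserine, is the next gene with a p-value on the same strand, 154591 bases beyond Lpar4. It stood at -0.71 (p = 0.0766, adjusted p = 0.700) in the authors' deposited table. A630033H20Rik, listed as P2ry10b in RefSeq, stood at -0.15 (p = 0.525), and Gpr174, a further lysophosphatidylserine receptor gene, at 0.18 in the authors' deposited table, without a p-value. Cysltr1, a leukotriene receptor gene on the other side, stood at -0.33 in the authors' deposited table, also without one. Within 500 kb on each side Lpar4 was the 1 called gene. Among the 25 genes that overlap or lie nearest to a member, none was called and 14 had positive values, with a median of 0.04. The lowest adjusted p among these 25 was that of Dnmt1, the maintenance DNA methyltransferase gene beside S1pr2, at 0.55 (p = 0.00590, adjusted p = 0.262) in the authors' deposited table. Olfm3, beside S1pr1 at a distance of 584710 bases, and Ube2o, beside Sphk1, were the other neighbours with an unadjusted p under 0.05, at -1.21 (p = 0.0202) and 0.48 (p = 0.0388) in the authors' deposited table.

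**Figure D4:**
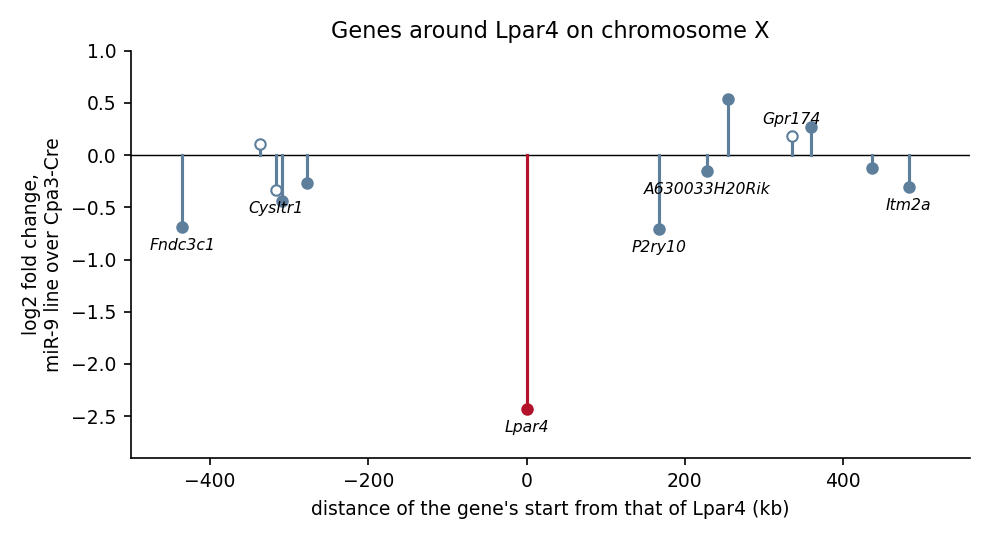
Log2 fold change from the authors' deposited table (y axis) for every gene model within 500 kb of Lpar4 on chromosome X, by distance of its start from the Lpar4 start in kb (x axis). Open circles have no p-value and red marks an adjusted p under 0.05; Lpar4 at -2.43 is the 1 red gene, and P2ry10 stands at -0.71.

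Other genes of the LPA and S1P pathways, with receptors and enzymes for related lipids, were grouped by role into 8 lists. The lists held 129 genes, of which 114 had a p-value. Of these, 2 fell and none rose, and the median was -0.08 on the log2 scale of the authors' deposited table. The called share was 1.75 percent, beside 0.411 percent of all genes. It rests on 2 neighbouring genes, in lists chosen with earlier results of these data known. The called share therefore supports nothing about the pathways. Before adjustment, 2 were higher and 7 lower with a p under 0.05, together 7.89 percent, beside 7.92 percent of all genes, so this share is that of the background. The genes that fell were Gpr65 and Galc, which lie side by side on chromosome 12. Gpr65, a proton-sensing receptor once proposed to bind the lysolipid psychosine, had a log2 fold change of -2.65 by the authors' deposited table, with an adjusted p of 9.87e-08. Galc, the lysosomal enzyme that degrades galactosylceramide and psychosine, stood at -2.16 by the authors' deposited table, with an adjusted p of 1.00e-08.

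**Figure D5:**
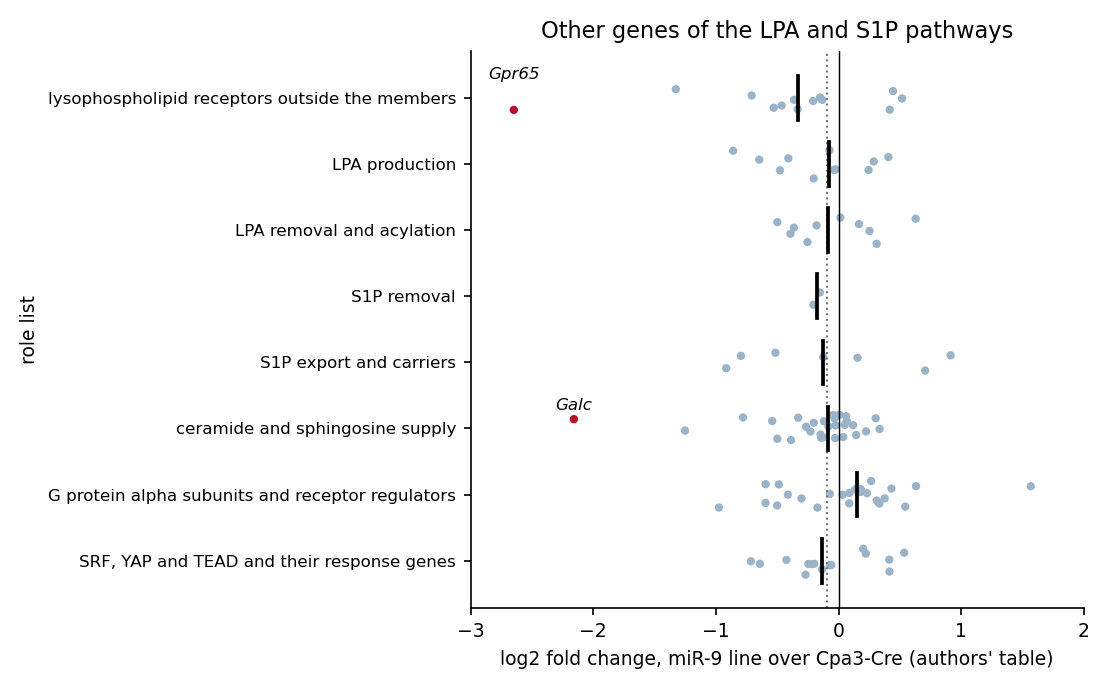
Log2 fold change from the authors' deposited table (x axis) for the other pathway genes with a p-value, by role list. Points are genes, red points have an adjusted p under 0.05, black bars are list medians, and the dotted line is the median of all genes, -0.09; Gpr65 and Galc are the 2 red points.

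The list of receptors for related lipids held 15 genes, the 3 outside receptors included. Of its 13 with a p-value, 1 fell (Gpr65) and 10 had negative values, with a median of -0.33 in the authors' deposited table. For this list and those below, the background is all genes with a p-value. Of these, 40.2 percent had positive values, with a median of -0.09, so mostly negative lists are common. Gpr55, a lysophosphatidylinositol receptor, stood at -0.46 (p = 0.0101, adjusted p = 0.346) in the authors' deposited table.

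Genes that make, remove or carry the ligands did not pass. Of 11 LPA-producing genes with a p-value, 8 had negative values with a median of -0.07. Enpp2, which encodes autotaxin, stood at -0.86 (p = 0.105) and the phospholipase genes Pla2g4a and Pla2g6 at 0.29 (p = 0.0935) and 0.41 (p = 0.103) in the authors' deposited table. Of 10 genes of LPA removal and acylation, 5 had negative values, with a median of -0.08. Ppap2c, a lipid phosphate phosphatase now named Plpp2, stood at 0.63 (p = 0.0889), Acp6, an LPA phosphatase, at -0.36 (p = 0.0958) and the acyltransferase gene Lclat1 at 0.25 (p = 0.188) in the authors' deposited table.

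For S1P, 2 of the 4 genes of removal had a p-value, the phosphatase gene Sgpp2 at -0.20 (p = 0.470) and the aldehyde dehydrogenase gene Aldh3a2 at -0.15 (p = 0.531) in the authors' deposited table. Of 7 genes for export and carriers, 4 had negative values, with a median of -0.13. Spns2, an S1P exporter, stood at -0.92 (p = 0.0235, adjusted p = 0.488) and Mfsd2b, the exporter of red cells and platelets, at -0.13 (p = 0.780) in the authors' deposited table. The lipid transporter gene Abca1 stood at 0.91 (p = 0.0685) and Abcg2 at -0.80 (p = 0.138) in the authors' deposited table.

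Of 29 genes of ceramide and sphingosine supply with a p-value, 1 fell (Galc) and 19 had negative values, with a median of -0.08. Acer2, the Golgi ceramidase that frees sphingosine, stood at -1.25 (p = 0.00724, adjusted p = 0.290) in the authors' deposited table. Smpd2, a neutral sphingomyelinase, stood at -0.54 (p = 0.00977, adjusted p = 0.341 by Benjamini-Hochberg) in the authors' deposited table.

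Downstream of the receptors, none of 27 genes for G protein alpha subunits and receptor regulators passed. Of these, 18 had positive values (66.7 percent, beside 40.2 percent of all genes), with a median of 0.15. The difference from all genes was not tested. Gnai1, an inhibitory alpha subunit of the kind that S1pr1 couples to, stood at 1.57 (2.97-fold higher, p = 0.000733, adjusted p = 0.0860) in the authors' deposited table. Gnaz, of the same class, stood at 0.63 (p = 0.0429, adjusted p = 0.602), and Adrbk2, a receptor kinase now named Grk3, at -0.98 (p = 0.0651) in the authors' deposited table. The other inhibitory subunit genes Gnai2 and Gnai3 stood at 0.18 and 0.38 in the authors' deposited table and did not pass.

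A list of the transcription factors SRF, YAP and TEAD, their cofactors and some genes known to respond to them held 15 genes with a p-value. None passed and 5 had positive values, with a median of -0.13, and as the list mixes regulators with targets this median does not describe a response. Tpm1, a response gene for a tropomyosin, stood at 0.42 (p = 0.101), Tead1, a partner of YAP, at -0.71 (p = 0.156) and Mkl1, an SRF coactivator, at 0.41 (p = 0.188) in the authors' deposited table.

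Markers of the cells that such cultures can hold were read in the same table. All 14 mast cell markers had a p-value, 1 rose (Tpsb2, a tryptase gene) and the median was 0.09 in the authors' deposited table. Of the markers of neutrophils 1 of 10, of monocytes and macrophages 3 of 12 and of eosinophils 2 of 7 had a p-value. None of these was called, and their medians were -0.28, -0.43 and -0.41. With the genes lacking a p-value included, the medians of these lists were -0.003, -0.10 and -0.005. Of all 85 markers, 28 had no p-value, against 5.78 percent of all rows. All 9 lymphocyte and 5 dendritic cell markers with a p-value had negative values (medians -0.52 and -0.42), as did 7 of 9 stromal and endothelial markers (median -0.35), with none called. Erythroid and megakaryocyte markers had positive values in 8 of 11 (median 0.48), again with none called. Of 3 basophil markers with a p-value, 1 was positive (median -0.35). With Mcpt8 (0.13) and Prss34 (0.52), which lack a p-value, the median of all 5 basophil markers was 0.13. At an unadjusted p under 0.05, 3 of the 57 markers with a p-value were higher and 4 lower, together 12.3 percent, beside 7.92 percent of all genes. The 4 lower markers included Pdgfra, a receptor gene of stromal cells (-1.47, p = 0.00628), and Emcn, an endothelial sialomucin gene (-1.21, p = 0.0194), in the authors' deposited table. Apoe, of the macrophage list, stood at -1.31 (p = 0.00326) and Cd3d, a T cell receptor complex gene, at -1.03 (p = 0.00887) in the authors' deposited table. The higher ones were Tpsb2 at 1.60, the mast cell chymase gene Cma1 at 0.97 (p = 0.0176) and the haemoglobin gene Hbb-bs at 1.09 (p = 0.0405) in the authors' deposited table. Marker levels per library were not analysed here, and the part of other cell types in the values of Lpar4 and the other members was not tested.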

How the data were processed

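RNA of 5 samples, 3 of Cpa3-Cre;miR-9∆fl/∆fl and 2 of Cpa3-Cre, was depleted of ribosomal RNA and read as paired 50-base strand-marked reads at a stated depth of about 70000000 per sample, per the labels' protocols. Depth per gene is unknown here. The authors deposited 1 table of 25549 gene models that gives, per the file headers, the log2 fold change, a signed linear fold and the p-value (24071 rows have the last). The submitters' processing notes name DESeq2, DESeq, Cuffdiff, HTSeq and STAR and the builds mm10 and GRCm38, with no version or role. The sources used here do not give the formula, filters, strand setting or any shrinkage of folds.

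A further 5 columns hold library values under names that no sample's labels carry. They were not used, so no test of expression was run here, and levels, leave-one-out fits and likeness to other genes over samples were not computed. Following the plan for such a table, the deposited p-values were adjusted by Benjamini-Hochberg over all 24071 genes (statsmodels 0.14.6), with a threshold of 0.05. The members and the gene lists were chosen with earlier results of these data known.

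A further planned gene list is not reported here. Named genes were the members, called genes and the 3 smallest p-values of each role list, the nearest or overlapping genes, and cell type markers. S1pr3, S1pr5, P2ry10b (A630033H20Rik), Gpr174, Cysltr1, Mfsd2b, Gnai2 and Gnai3 were named outside this rule, after their values were seen. Coding sequences, 3' UTRs and transcripts came from GENCODE M21 (GRCm38), and miRNA sequences from RefSeq. Global protein alignments used BLOSUM62 (Biopython 1.88). Of the rows, 24855 were given a gene class by symbol and position. The p-value adjustment, the implied standard error and the counting of seed matches were tested on simulated data, and the other steps were not. Python 3.11.15, pandas 2.3.3, numpy 2.4.6 and scipy 1.17.1 were used.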

Additional observations from a re-analysis of the deposited data

How the results depend on the processing

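Lpar4 was called, and no other member, at an unadjusted p under 0.0001 and at an adjusted p under 0.10. The same was so with protein-coding genes only and with Benjamini-Yekutieli adjustment. All of these settings reread the deposited p-values that were in view when the set was proposed. A gene already called must stay called at the looser adjusted threshold. The repeated call of Lpar4 therefore does not measure its stability. The adjusted p of Lpar4 was 0.00154 with protein-coding genes only and 0.0227 with Benjamini-Yekutieli adjustment. Over all genes, 59 rose and 40 fell; at an unadjusted p under 0.0001 the count that rose was 38, at an adjusted p under 0.10 the counts were 165 and 68, and with Benjamini-Yekutieli adjustment they were 11 and 13. Among the pathway lists, 1 gene (Gnai1) rose at an adjusted p under 0.10. With 6-base matches, 4 members had a miR-9-5p match and 4 a miR-9-3p match, against 0 and 2 with 7 bases. Over 15442 protein-coding genes the shares with a 6-base match were 37.0 and 29.8 percent. The median 3' UTR was 1720 bases in the members and 1073 in these genes. The median of the S1P removal list was -0.22 with genes lacking a p-value included and -0.0864 relative to the median of all genes, -0.09, and 3 of 8 list medians changed sign relative to that median. Of 60 values for 15 single genes under these settings, 59 stayed on the same side of the threshold. Every setting reads the same deposited p-value of a gene, and most of these p-values lie far from any threshold. This count therefore does not measure stability. No paired analysis was possible because the values per library could not be tied to numbered samples; for the same reason, leaving out replicates, other normalizations, filters and pseudocounts were not run. The precision of each fold rests on the assumption of a Wald test, and the depth behind each gene is unknown.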

Other observations

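Several genes of these pathways have a fold in the authors' deposited table without any p-value, and they entered no count of calls. The p-value was empty for 15 of the 129 listed pathway genes, against 5.78 percent of all rows. Sgpl1, the lyase that degrades S1P irreversibly, stood at -0.23 and the S1P phosphatase gene Sgpp1 at -0.72 in the authors' deposited table. Gnaq, the alpha subunit that activates phospholipase C, stood at -0.70, and Ppap2b, a lipid phosphate phosphatase now named Plpp3, at -0.65 in that table. Gpr132, a receptor of the proton-sensing group, stood at -0.49, and the lysophospholipid acyltransferase genes Mboat1 and Mboat2 at 0.51 and -0.45 in the authors' deposited table. These genes were chosen after their values were seen, and why their p-values are empty was not tested.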
